A study of Mus musculus with 36 samples.

Results

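The enzymes that write and erase methylation of lysine 36 on histone H3 (H3K36) were followed in neoplastic cells from 36 mouse lung tumours. They are 10 of the 49585 gene IDs in the count table, found by matching each Ensembl ID to a mouse symbol. The 6 writers are Setd2, Nsd1, Nsd2, Nsd3, Ash1l and Setd5, and the 4 erasers are Kdm2a, Kdm2b, Kdm4a and Kdm4c. EGFP-positive cells were sorted from tumours driven by the EML4-ALK fusion oncogene, either its variant 1 (V1) or its variant 3 (V3), and their RNA was sequenced. In each variant the tumours carried a guide called sgNeo, described as Setd2-proficient, or the guide sgSetd2, described as Setd2-deficient. All 4 groups thus share the fusion and the sort, and they differ in the variant and the guide. Each group had 9 tumours in 3 title codes of 3 tumours. What a code stands for is not given, nor are the animals' strain, sex and age, the origin of EGFP or the way the guides were delivered. The 3 tumours of each code were added up before the main tests, which leaves n = 3 codes per group. Their p-values refer to the scatter of codes, which may be technical. Fits on the 36 tumours, named as such below, and the test between tumours of the same code draw on the scatter of tumours.

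H3K36 methylation marks the bodies of transcribed genes and is placed by enzymes with separate tasks. Setd2 is the enzyme that adds the third methyl group, and it travels with elongating RNA polymerase II, whereas the Nsd enzymes and Ash1l make the lower, mono- and dimethylated forms. Kdm2 demethylases remove the lower forms and Kdm4 demethylases remove methyl groups from the trimethylated form, and reader proteins with PWWP or Tudor domains dock on the mark. SETD2 is a tumour suppressor gene in human lung adenocarcinoma.

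Tumour libraries held between 17.9 M and 137.2 M counts. The lowest count of any of the 10 genes in any tumour was 217, for Kdm2b, and all 10 passed the filter on low counts among 20009 genes tested. The sorted cells expressed alveolar and epithelial markers. Each of 8, among them Epcam, Nkx2-1 and Sftpc, averaged above 1 CPM (counts per 1 M counts of the library). Their summed level lay between 28082 and 174495 CPM. Whether the cells were neoplastic, as labelled, was not tested by these markers. Macrophage markers summed to at most 26.0 CPM, endothelial markers to at most 8.28 CPM and lymphocyte markers to at most 1.32 CPM, with Cd163 and Cd8a at or near 0. Fibroblast markers had higher medians in the sgSetd2 group of both variants, and neutrophil markers in that of V3. The fibroblast sum had medians of 5.52 and 24.1 CPM in V1 sgNeo and sgSetd2 tumours (at most 380.5 and 167 CPM) and of 8.99 and 43.4 CPM in V3 (at most 35.9 and 96.0 CPM). The neutrophil sum, in which 1 of 5 markers averaged above 1 CPM, had medians of 0.316 and 0.231 CPM in V1 and of 0.215 and 7.44 CPM in V3 (at most 26.3 CPM in V3 sgSetd2). The part of either list in the results was not tested. In bulk RNA, fewer cells of a type and less RNA per cell cannot be told apart.

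Setd2 (ENSMUSG00000044791.16; GRCm38 chromosome 9, 110532597 to 110618633, plus strand) was the targeted gene and was read first. In V1 sgNeo tumours its lowest, median and highest levels were 43.9, 61.4 and 95.1 CPM, after scaling libraries by the trimmed mean of M-values (TMM). In V1 sgSetd2 tumours they were 27.9, 38.9 and 46.5 CPM. All 9 V1 sgSetd2 tumours lay below the sgNeo median, 7 lay below every sgNeo tumour, and 2 lay inside the sgNeo range. In V3 the 3 values were 39.0, 51.2 and 68.5 CPM in sgNeo and 28.2, 41.1 and 81.1 CPM in sgSetd2 tumours. There 4 of 9 sgSetd2 tumours lay below every sgNeo tumour, 4 lay inside the sgNeo range and 1 lay above it. The V3 tumour above the range was tumour 10 of CE456, whose code also held tumours at 56.1 and 34.0 CPM. Its library had the highest mitochondrial share of counts in its group, 5.97% against 3.89% for the next, and the fewest genes detected, 16672. Spearman's rho of Setd2 with the mitochondrial share was 0.48 over the sgSetd2 tumours and -0.54 over the sgNeo tumours. The part of library quality in the Setd2 level of this tumour was not tested.

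Setd2 mRNA in V1 sgSetd2 codes was 0.552 of its level in sgNeo codes (95% interval 0.397 to 0.768), a log2 fold change of -0.86 (SE 0.22). The 3 codes of each V1 group did not overlap, as was the case, in the lower direction, for 12.3% of all genes tested. After adjustment over all genes the V1 change did not pass (adjusted p = 0.0825), nor did the change in V3 (-0.26, 95% interval -0.73 to 0.22, adjusted p = 0.647). The value averaged over both variants was -0.56 (95% interval -0.89 to -0.22, adjusted p = 0.0501), just beyond the threshold of 0.05, and it passed with DESeq2 (adjusted p = 0.00961) and with limma voom (0.00451). Leaving out CE456, a V3 code, kept the V1 value at -0.86 (adjusted p = 0.047) and moved the average to -0.68 (adjusted p = 0.019). It was the 1 fit with a code or tumour left out in which V1 passed. Over such fits the adjusted p in V1 reached 0.292 for codes and 0.175 for tumours. The 2 sgSetd2 groups did not differ beyond their spread (V3 minus V1 0.29, adjusted p = 0.698). The mean cell cycle level per code as a covariate took the V1 value to -1.33 (adjusted p = 0.736), in a fit where 1 of 20009 genes passed. Gene-level counts do not show whether an allele was cut, so the level of Setd2 mRNA is a limited check of the guide.

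Retnla, Steap4 and Ugt8a were set beside Setd2 in single tumours. They were chosen because an earlier reading of these same data found them strongly raised in sgSetd2 tumours. Their difference between the guides is thus how they were picked and not a result here. Retnla, which encodes a secreted resistin-like protein, stood between 0.481 and 783 CPM in sgNeo tumours of both variants and between 1803 and 18625 CPM in sgSetd2 tumours. Tumour 10 of CE456, with the highest Setd2 level of its group, held 8007 CPM of Retnla and 140 CPM of Steap4, a metalloreductase gene, both inside the range of the other V3 sgSetd2 tumours. Tumour 4 of CE479, a V1 sgSetd2 tumour with 45.1 CPM of Setd2, held 2938 CPM of Retnla but 10.3 CPM of Steap4, below the other sgSetd2 tumours and inside the sgNeo range of V1. A further response gene, Ugt8a, which encodes a glycolipid galactosyltransferase, had no count in tumour 10 of CE456, tumour 4 of CE479 and tumour 3 of CE450, where up to 3 counts, or at most 0.0848 CPM, could be missed. The other 15 sgSetd2 tumours held 73 to 1540 counts of Ugt8a, and 17 of 18 sgNeo tumours held none. The sgSetd2 tumour with the most Setd2 mRNA was thus within its group for Retnla and Steap4 and at the sgNeo level for Ugt8a, as was tumour 3 of CE450, which had the least Setd2 mRNA of the V3 sgSetd2 tumours.

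**Figure D1:**
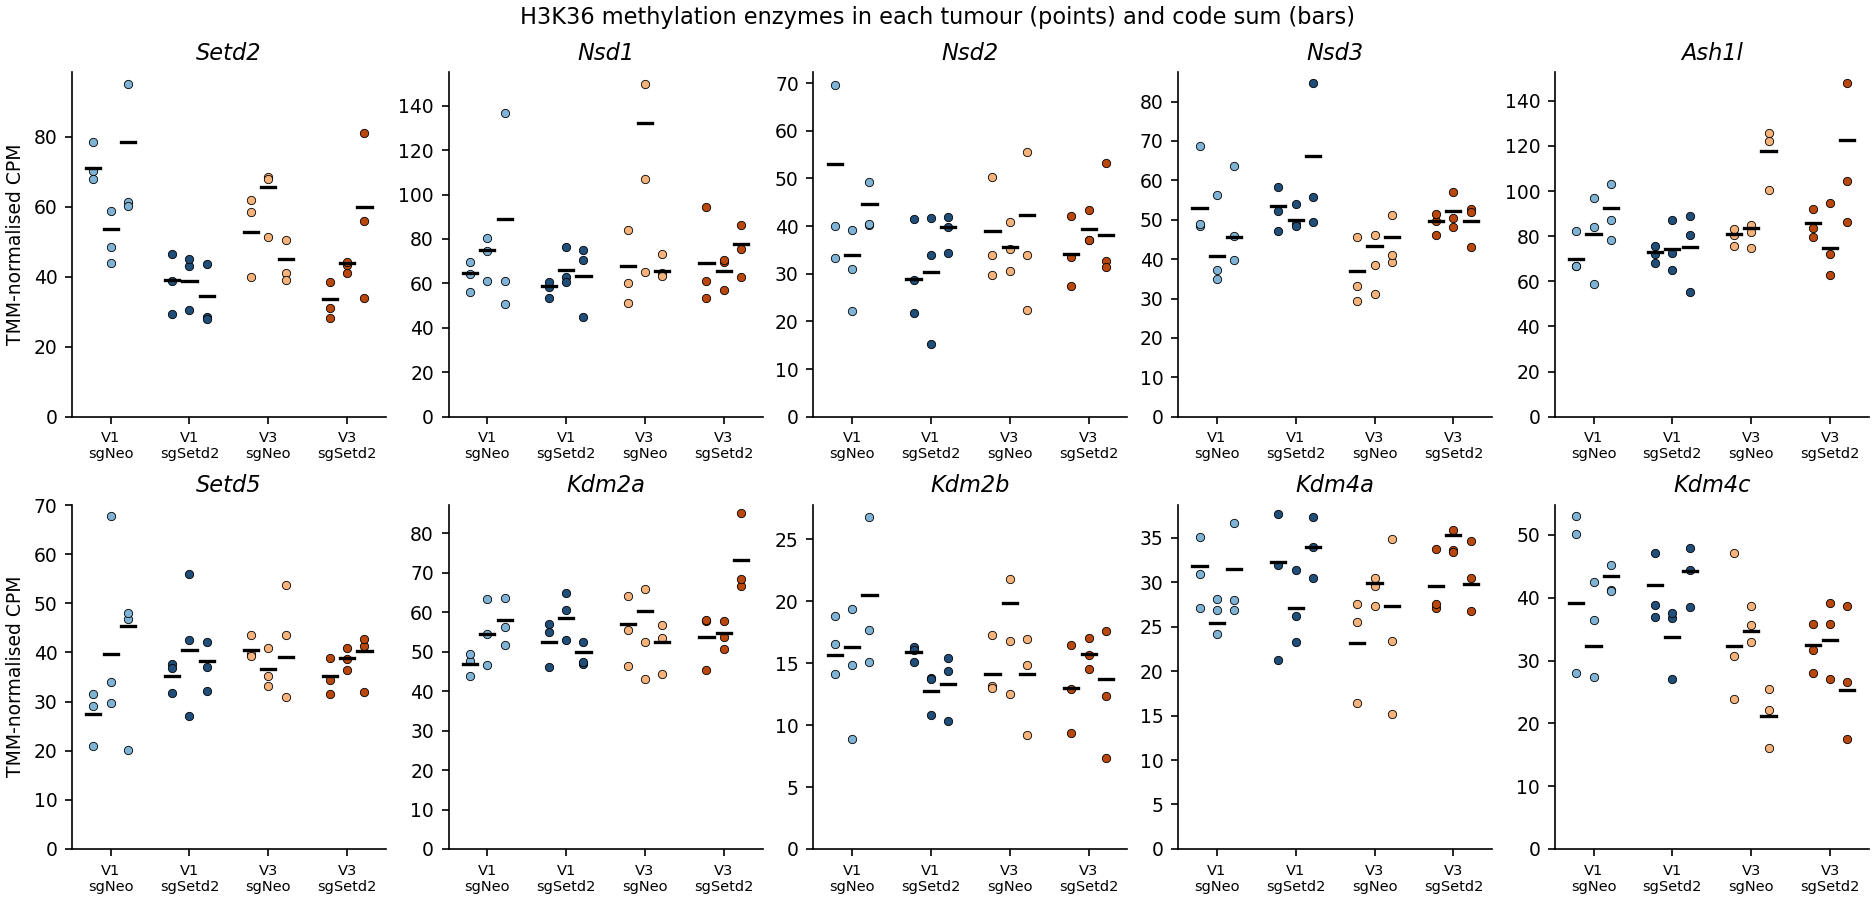
TMM-normalised CPM (y axes, each from 0) of the 10 enzymes in 36 tumours, by group (x axes), with 3 columns of points per group for its 3 codes. Points are tumours and short bars are the CPM of the summed counts of a code, so a deeply read tumour weighs more in its bar. The V1 sgSetd2 tumours reach at most 46.5 CPM of Setd2, and the V1 sgNeo tumours start at 43.9 CPM.

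None of the 10 enzymes passed the test for the guide in V1, in V3 or averaged over variants with edgeR. Genes called among all tested made up 1.42% in V1, 1.49% in V3 and 7.35% for the average. At an unadjusted p under 0.05 there were 2 enzymes in V1 (Setd2 and Nsd2), 0 in V3 and 2 for the average (Setd2 and Nsd3), while 15.9%, 15.1% and 22.9% of all genes were under it, so these counts are near or below the background. With other tools, Setd2 alone was called in V1 by DESeq2, by edgeR on the 36 tumours and by limma voom but not by limma on mean levels, and no enzyme was called in V3 by any tool run. For the average, Setd2 was called by these and by limma on mean levels, and Nsd3 joined it with edgeR on the 36 tumours (adjusted p = 0.042). That fit takes the 3 tumours of a code as independent, which the tests on code sums do not, so its p-values may be too small. The median log2 fold change of the 10 was -0.06 in V1, -0.01 in V3 and -0.03 averaged, beside medians of -0.01, 0.02 and 0.01 over all genes. The 95% interval lay within a 2-fold change either way for 9 of 10 enzymes in V1, Setd2 being the exception, and for 10 of 10 in V3.

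**Figure D2:**
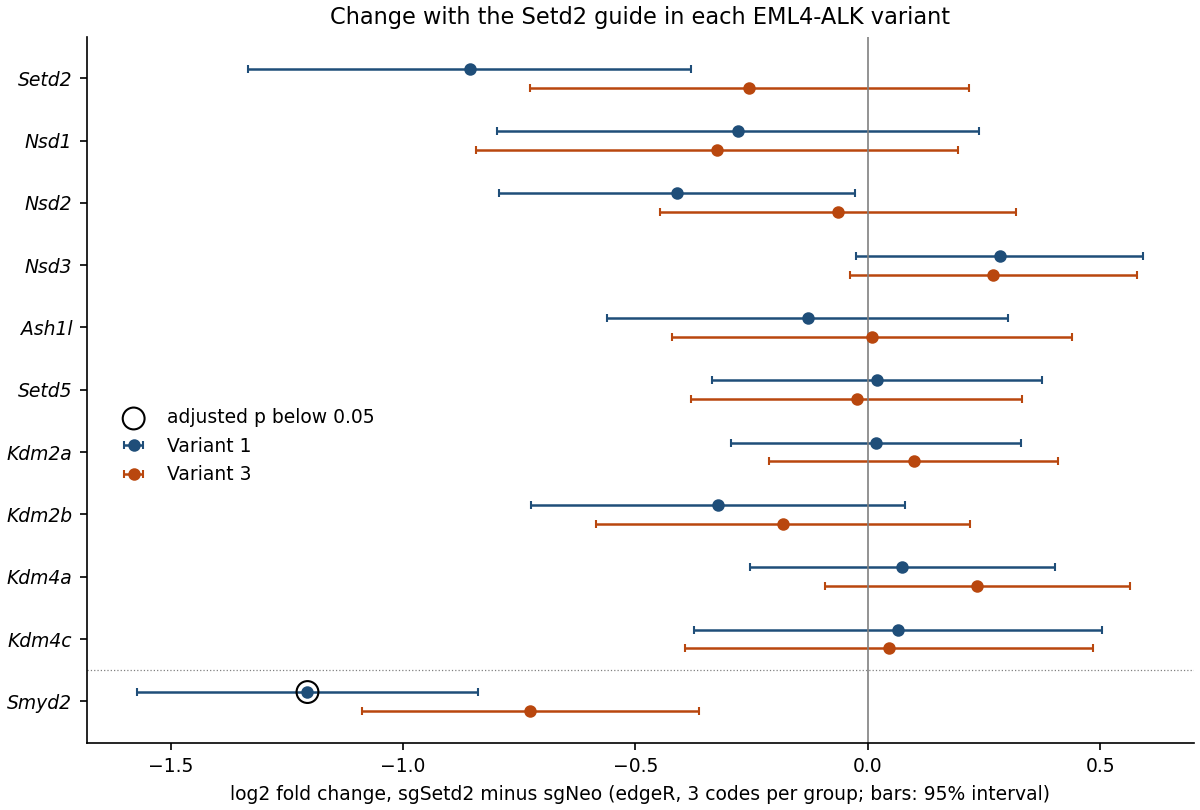
Log2 fold change of sgSetd2 against sgNeo (x axis) for the 10 enzymes and, below the dotted line, Smyd2, in V1 (blue) and V3 (orange), from edgeR on 3 codes per group. Bars are 95% intervals and a ring marks an adjusted p below 0.05, which Smyd2 reached in V1.

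Nsd3 (chromosome 8, 25601601 to 25719667), which makes the lower methylated forms of H3K36, was the writer with higher values in sgSetd2 tumours of both variants. Its lowest, median and highest levels in V1 were 34.9, 48.4 and 68.7 CPM in sgNeo and 47.1, 52.3 and 84.7 CPM in sgSetd2 tumours. In V3 they were 29.3, 39.2 and 51.1 CPM in sgNeo and 43.2, 50.4 and 57.0 CPM in sgSetd2 tumours. All 9 V3 sgSetd2 tumours and 8 of 9 in V1 lay above the sgNeo median of their variant, and the ranges of the tumours overlapped. The 3 V3 sgSetd2 codes, from 49.6 to 52.2 CPM, lay above the sgNeo codes, from 36.9 to 45.6 CPM, a separation in the higher direction that 10% of all genes tested also showed. The log2 fold change was 0.28 in V1 (adjusted p = 0.359), 0.27 in V3 (adjusted p = 0.4) and 0.28 averaged (SE 0.10, adjusted p = 0.119), so the averaged change did not pass. With the cell cycle list as a covariate the V1 value was 0.04 and the average 0.14.

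Nsd3 also moved with other measures of the libraries. Over the 36 tumours its level had a rho of -0.56 with the mitochondrial share of counts, -0.48 with the cell cycle list and 0.56 with the club and ciliated cell list. After removing group means these were -0.24, -0.39 and 0.20. Mitochondrial shares ran from 1.33% to 8.20% in V1 sgNeo and from 1.03% to 2.42% in V1 sgSetd2 tumours, and in V3 from 1.92% to 3.15% in sgNeo and from 1.02% to 5.97% in sgSetd2 tumours. The 8.20% belonged to tumour 4 of CE468, and the next V1 sgNeo tumour had 2.65%. All 5 club and ciliated markers averaged above 1 CPM, summing to between 16.8 and 213 CPM in V1 sgNeo and between 166 and 848 CPM in V1 sgSetd2 tumours. In V3 that sum ran from 10.4 to 27.1 CPM in sgNeo and from 49.7 to 353 CPM in sgSetd2 tumours. The part of these measures in the Nsd3 values was not tested, apart from the cell cycle covariate above.

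Nsd1 (chromosome 13, 55209782 to 55318325), a dimethyltransferase of H3K36, had medians of 64.2 and 60.8 CPM in V1 sgNeo and sgSetd2 tumours and of 65.2 and 69.5 CPM in V3. Single tumours rose far above these medians, to 136.8 CPM in V1 sgNeo and 149.8 CPM in V3 sgNeo, and the groups overlapped. The log2 fold change was -0.28 in V1 (adjusted p = 0.638) and -0.32 in V3 (adjusted p = 0.578). With 1 tumour left out the V1 value ran from -0.484 to -0.036. The V3 value rested on CE429, whose code sum was 132 CPM against 67.8 and 65.7 CPM in the other sgNeo codes, and without CE429 it was 0.086.

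Nsd2 (chromosome 5, 33820725 to 33897975), the third of this family, had medians of 40.0 and 34.3 CPM in V1 sgNeo and sgSetd2 tumours and of 34.0 and 37.1 CPM in V3. Its tumours overlapped in both variants, from 22.1 to 69.6 CPM in V1 sgNeo and from 15.2 to 41.8 CPM in V1 sgSetd2. The log2 fold change was -0.41 in V1 (SE 0.17, adjusted p = 0.276) and -0.06 in V3 (adjusted p = 0.918). Whether the Nsd2 change differed between variants was tested and did not pass (difference 0.35, 95% interval -0.19 to 0.89, adjusted p = 0.897).

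Ash1l (chromosome 3, 88950622 to 89079375), a Trithorax-group methyltransferase, and Setd5 (chromosome 6, 113077365 to 113153435), a SET-domain protein whose own activity on H3K36 is debated, had estimates near 0 in both variants. Ash1l had medians of 82.3 and 72.5 CPM in V1 sgNeo and sgSetd2 tumours and of 83.3 and 86.5 CPM in V3, with log2 fold changes of -0.13 and 0.01. Setd5 had medians of 31.5 and 37.0 CPM in V1 and of 39.7 and 38.8 CPM in V3, with log2 fold changes of 0.02 (95% interval -0.34 to 0.37) and -0.02 (-0.38 to 0.33). Tumours of the groups overlapped for both genes in both variants.

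Among the erasers, Kdm2a (chromosome 19, 4314419 to 4398285) and Kdm2b (chromosome 5, 122870665 to 122989823) encode JmjC demethylases that also bind unmethylated CpG DNA through a zinc finger. Kdm2a had medians of 51.8 and 52.9 CPM in V1 sgNeo and sgSetd2 tumours and of 53.5 and 57.9 CPM in V3, and log2 fold changes of 0.02 and 0.10. Kdm2b had medians of 16.6 and 14.4 CPM in V1 and of 14.9 and 14.5 CPM in V3, and its log2 fold change was -0.32 in V1 (95% interval -0.73 to 0.08, adjusted p = 0.434) and -0.18 in V3 (adjusted p = 0.72). All 9 V1 sgSetd2 tumours lay below the V1 sgNeo median of Kdm2b, yet all 9 lay inside the sgNeo range. Of the exonic bases of Kdm2b, 8.74% overlap other genes, among them the antisense gene A930024E05Rik, so part of its count cannot be told apart from theirs.

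Kdm4a (chromosome 4, 118136957 to 118180043) and Kdm4c (chromosome 4, 74242497 to 74405860) encode demethylases that act on trimethylated H3K36 and H3K9. Kdm4a had medians of 28.0 and 31.3 CPM in V1 sgNeo and sgSetd2 tumours and of 27.3 and 33.4 CPM in V3. Its log2 fold change was 0.07 in V1 and 0.24 in V3 (95% interval -0.09 to 0.56, adjusted p = 0.506). Kdm4c had medians of 41.2 and 38.6 CPM in V1 and of 30.7 and 31.7 CPM in V3, and log2 fold changes of 0.06 and 0.05. The tumours of the groups overlapped for both genes.

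The variant comparison asks whether the fusion variant changes these enzymes within one guide. None of the 10 passed between V3 and V1, in sgNeo (where 0.005% of all genes were called) or in sgSetd2 tumours (0.13%), none reached an unadjusted p under 0.05, and no other tool called one. The median log2 difference of the 10 was -0.13 in sgNeo and 0.10 in sgSetd2, beside -0.02 and 0.03 over all genes. The lowest value in both belonged to Kdm4c, at -0.38 in sgNeo (SE 0.20, adjusted p = 0.54) and -0.40 in sgSetd2 (SE 0.20, adjusted p = 0.545). Its V3 sgSetd2 codes, from 25.3 to 33.3 CPM, lay below the V1 sgSetd2 codes, from 33.8 to 44.2 CPM, a separation in the lower direction seen in 8.06% of all genes. Over the 36 tumours Kdm4c had a rho of -0.48 with the cell cycle list and -0.54 after removing group means. With that list as a covariate the Kdm4c difference was -0.48 in sgNeo and -0.28 in sgSetd2. The highest value in sgSetd2 belonged to Ash1l, at 0.35 (95% interval -0.08 to 0.78, adjusted p = 0.593).

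The effect of the guide did not differ measurably between variants for any of the 10 enzymes. With edgeR 0% of all genes passed the interaction, 0 of 10 enzymes had an unadjusted p under 0.05, and no other tool called an enzyme. The largest difference belonged to Setd2, whose V3 minus V1 change was 0.60 (95% interval -0.07 to 1.27, adjusted p = 0.834). The other 9 differences ran from -0.05 for Nsd1 to 0.35 for Nsd2.

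Levels of different genes were compared per kb of the longest coding transcript in GENCODE release 21. In that unit Kdm4c was highest, at 8.22 ± 1.66 CPM per kb (SD, n = 12 codes), followed by Ash1l at 7.38 ± 1.48, Kdm2a at 6.53 ± 0.772 and Kdm4a at 6.38 ± 0.758. Setd2 came next at 6.15 ± 1.78 CPM per kb, above Nsd1 at 5.83 ± 1.55 and Setd5 at 5.64 ± 0.638. Nsd2 at 4.92 ± 0.845, Nsd3 at 4.83 ± 0.738 and Kdm2b at 2.98 ± 0.49 CPM per kb closed the order. The H3K36 trimethylase gene was therefore in the middle of this set. Of the erasers, Kdm4c, Kdm2a and Kdm4a had higher means than Setd2, and Kdm2b was lowest. The transcript used for Nsd2 has 9 exons, against 23 for Nsd1 and 24 for Nsd3, so its length is a less certain divisor.

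Several neighbours in the order did not differ beyond their spread. Kdm2a exceeded Kdm4a in 7 of 12 codes, Kdm4a exceeded Setd2 in 6, Setd2 exceeded Nsd1 in 8, Nsd1 exceeded Setd5 in 5 and Nsd2 exceeded Nsd3 in 6. Clearer steps were Kdm4c over Ash1l in 10 codes, Ash1l over Kdm2a in 11, Setd5 over Nsd2 in 11 and Nsd3 over Kdm2b in 12. Dividing by all exonic bases of a gene instead moved Kdm2a from rank 3 to 6 and Setd5 from rank 7 to 9, and left Kdm4c, Ash1l and Kdm2b at ranks 1, 2 and 10.

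**Figure D3:**
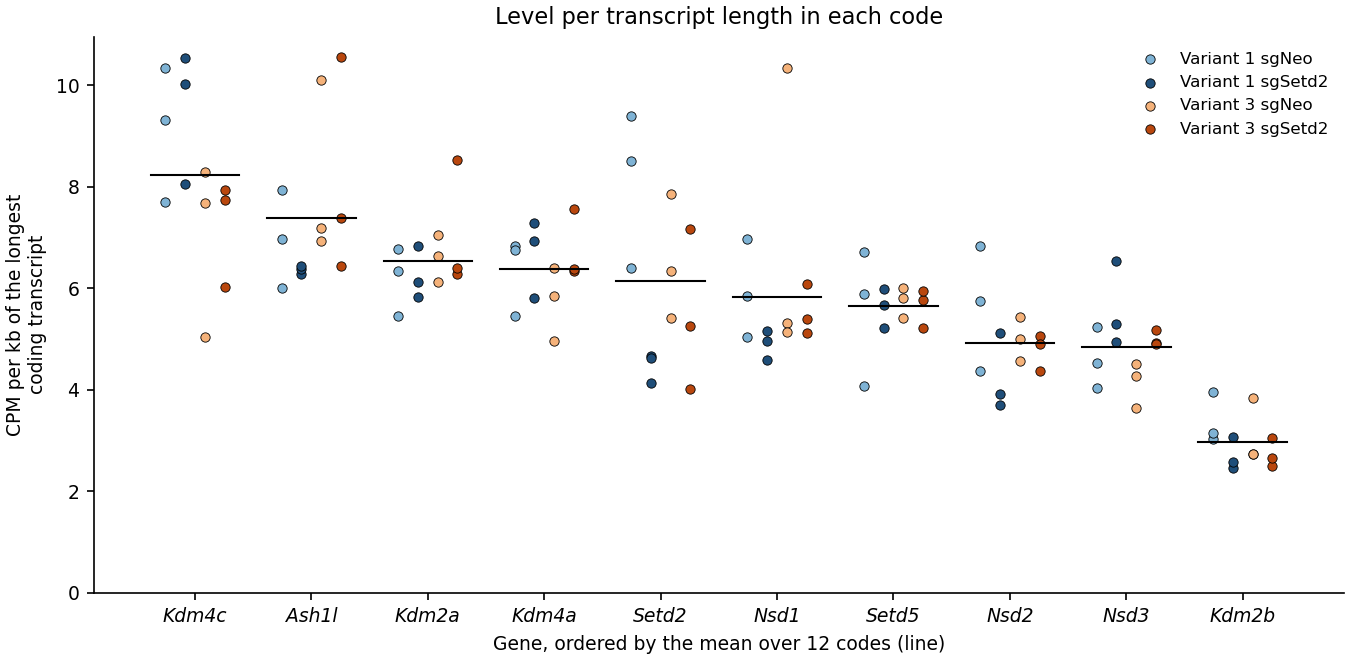
CPM per kb of the longest coding transcript (y axis, from 0) for the 10 enzymes in the order of their mean over 12 codes (line), with 1 point per code coloured by group. Kdm4c, at a mean of 8.22, and Kdm2b, at 2.98, stand at the ends, and the genes from Kdm2a to Setd5 overlap.

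Spread over the 36 tumours was small for most of the set. The median SD of log2-CPM was 0.356 for the 10 enzymes and 0.584 for the 16315 genes tested over tumours. These medians were not matched for level. By mean CPM the 10 enzymes lay between percentile 51.8 (Kdm2b) and percentile 86.3 (Ash1l) of those genes. Kdm2a was the least variable of the set, with an SD of 0.217 and 1.98-fold between its lowest and highest tumour. Setd2 had the highest SD of the set, 0.466, and 44.0% of its variance lay between the 4 groups, against a median of 15.7% over all genes. Nsd3 came next with 35.1% between groups. For Setd5, Nsd2, Kdm2b and Nsd1 between 69.5% and 77.2% of the variance lay between tumours of the same code. The median of that share was 55.9% over all genes and 55.7% over the 10 enzymes.

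The correlation of each enzyme with Setd2 over the 36 tumours is a description, because the tumours come in codes of 3 and each group shares its guide. Kdm2b came closest, with a rho of 0.339 (Pearson's r 0.25), then Kdm4c at 0.237 (0.173) and Nsd2 at 0.232 (0.268). Nsd1 at 0.106, Ash1l at 0.098, Setd5 at 0.025, Kdm4a at 0.016 and Kdm2a at -0.018 were near 0, and Nsd3 was lowest at -0.204 (r -0.188). All 9 values lay inside the central 90% of the 16314 other genes, from -0.392 to 0.359.

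Removing the group means lowered Kdm2b to 0.164 and moved Nsd3 to 0.083, so that all 9 values lay between 0.002 (Ash1l) and 0.305 (Kdm4c). Leaving out the 2 tumours farthest from the median of Setd2, tumour 6 of CE472 and tumour 10 of CE456, gave Kdm2b 0.482 and Nsd3 -0.139. Over the 12 code sums Kdm2b reached 0.685, Nsd1 0.51 and Nsd2 0.462, and Nsd3 reached -0.434, where the central 90% of 20008 genes ran from -0.587 to 0.587. Of the 9, Kdm2b alone lay outside that band, which leaves out the outer genes by construction. The values over code sums keep the differences between groups. Leaving out CE472 and CE450 lowered the value of Kdm2b over codes to 0.479 and that of Nsd2 to 0.224.

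**Figure D4:**
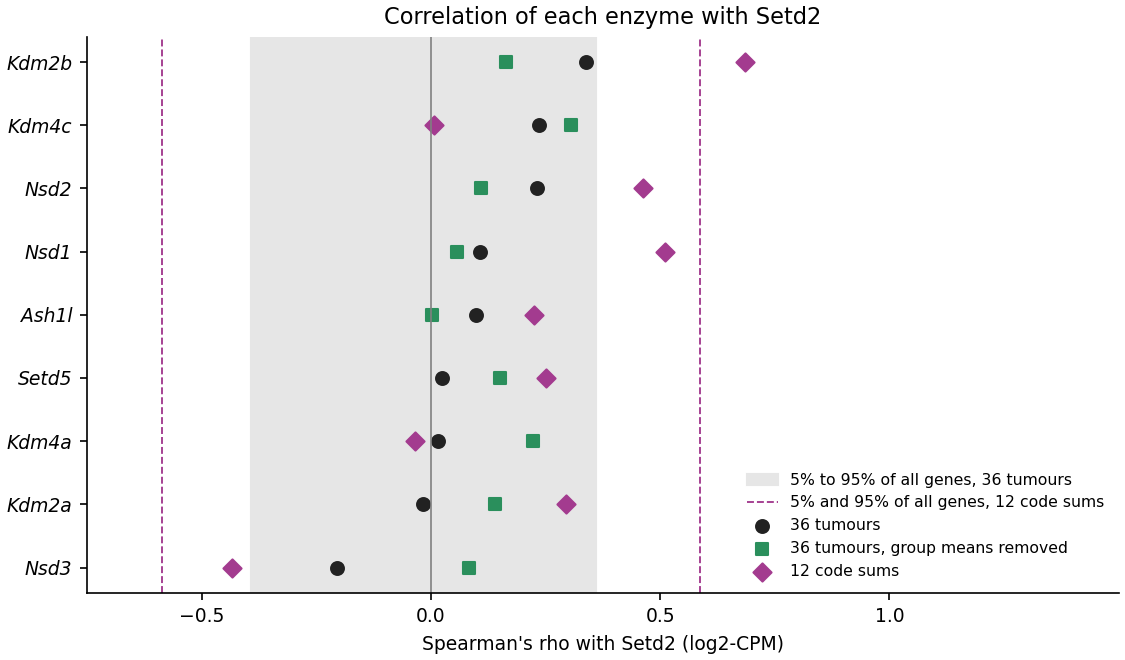
Spearman's rho with Setd2 (x axis) for the 9 other enzymes, over 36 tumours (circles), over 36 tumours after removing group means (squares) and over 12 code sums (diamonds). The grey band holds the central 90% of all genes over 36 tumours, from -0.392 to 0.359, and the dashed lines bound it over 12 code sums, at -0.587 and 0.587. Every circle lies in the grey band, and the diamond of Kdm2b lies outside the dashed lines.

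Whether an enzyme followed Setd2 inside groups was tested with its log2 level as a slope in edgeR. Between codes of the same group 0% of 20008 genes passed, and 0 of 9 enzymes had an unadjusted p under 0.05. The steepest slopes of the set were those of Nsd1, at 0.60 (SE 0.31), Kdm2b, at 0.40 (SE 0.26), and Kdm2a, at 0.39 (SE 0.18). Between tumours of the same code 0% of 16314 genes passed, again with 0 of 9 enzymes at an unadjusted p under 0.05, and the slopes ran from -0.13 for Nsd1 to 0.24 for Kdm4c. Over the 45 pairs of the 10 genes the median rho was 0.083, from -0.458 for Ash1l with Kdm4c to 0.355 for Nsd3 with Kdm4a.

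The genes whose level over the tumours was most like that of Setd2, among 9888 genes with a mean of at least 5 CPM, were Pik3r3, Lrrc28, Gon4l, D2hgdh and Magi3. Pik3r3, a regulatory subunit gene of PI3-kinase, had a rho of 0.647 with Setd2, and Magi3, a scaffold gene, one of 0.63. Removing group means lowered all 5, to 0.325 for Pik3r3 and 0.527 for Gon4l, the lowest and the highest of them.

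Other genes tied to the pathway were read from a list of 32, all of which were tested. It counts 4 as other writers, 5 as other erasers, 5 as genes for recruitment of the mark's enzymes or of transcription machinery, and 18 as readers. Whether each of them acts on H3K36 was not examined here. For the guide 1 of 32 passed in V1 (0 higher, 1 lower), 0 of 32 in V3, and 1 of 32 averaged over variants (0 higher, 1 lower). Over all genes 1.42%, 1.49% and 7.35% passed in these comparisons, so the counts are near or below the background. At an unadjusted p under 0.05 there were 3 in V1, 4 in V3 and 7 for the average, below the shares of 15.9%, 15.1% and 22.9% over all genes. Between variants and for the interaction 0 of 32 passed. The median log2 fold change of the list was -0.16 in V1, -0.05 in V3 and -0.03 averaged, beside -0.01, 0.02 and 0.01 over all genes.

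The gene that passed was Smyd2 (chromosome 1, 189880492 to 189922363, minus strand), a lysine methyltransferase reported to act on H3K36 and on proteins other than histones. In V1 its lowest, median and highest levels were 6.26, 11.8 and 22.9 CPM in sgNeo and 4.01, 6.42 and 8.81 CPM in sgSetd2 tumours. In V3 they were 7.06, 12.6 and 22.8 CPM in sgNeo and 5.55, 8.33 and 9.85 CPM in sgSetd2 tumours. All 9 sgSetd2 tumours lay below the sgNeo median in each variant, and the tumours overlapped at the low end of sgNeo. Its mean over codes was 14.9 ± 0.174 CPM (SD, n = 3) in V1 sgNeo, 6.46 ± 0.897 in V1 sgSetd2, 13.5 ± 1.44 in V3 sgNeo and 8.16 ± 0.539 in V3 sgSetd2. These are code sums, in which a deeply read tumour weighs more, and their SD leaves out the spread inside codes. In CE467 of V1 sgNeo alone the tumours ran from 6.26 to 22.9 CPM. Smyd2 fell by 1.21 on the log2 scale in V1 (SE 0.17, adjusted p = 0.0115) and by 0.97 averaged over variants (SE 0.12, adjusted p = 0.00123). In V3 its log2 fold change of -0.73 (SE 0.17) did not pass (adjusted p = 0.0586), although the codes did not overlap, as in 8.96% of all genes in that direction. The difference between variants was 0.48 (adjusted p = 0.824).

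Smyd2 moved with the cell cycle list, the mean log2 level of 16 genes, with a rho of 0.72 over the 18 sgNeo tumours and 0.37 over the 18 sgSetd2 tumours. The sgNeo tumours with the highest cell cycle level of their group, tumour 2 of CE472 in V1 and tumour 2 of CE428 in V3, held 19.3 and 20.2 CPM of Smyd2. With that list as a covariate the log2 fold change was -0.97 in V1 (adjusted p = 0.761, where 1 of 20009 genes passed) and -0.83 averaged (adjusted p = 0.128), so neither call was kept. The V1 call was also lost without tumour 1 of CE467 (-0.92, adjusted p = 0.148), tumour 2 of CE472 (0.0614), CE475 (0.0534) or CE483 (0.0718), while the averaged call held in each of these. With limma on mean log2-CPM per code, where each tumour weighs the same, the V1 call was lost as well. The average was then -0.76 and kept its call (adjusted p = 0.00847). Over the 36 tumours Smyd2 also had a rho of -0.67 with the club and ciliated cell list. With the share of counts taken by the 10 most abundant genes of a library its rho was -0.80 over the sgNeo tumours, -0.56 over the sgSetd2 tumours and -0.73 over all 36 after removing group means. That share had group medians from 18.6% to 20.9%, and its lowest tumour was at 8.26%, in V1 sgNeo. The part of these measures in the Smyd2 values was not tested. Its rho with Setd2 was 0.303 over the tumours and -0.195 after removing group means.

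**Figure D5:**
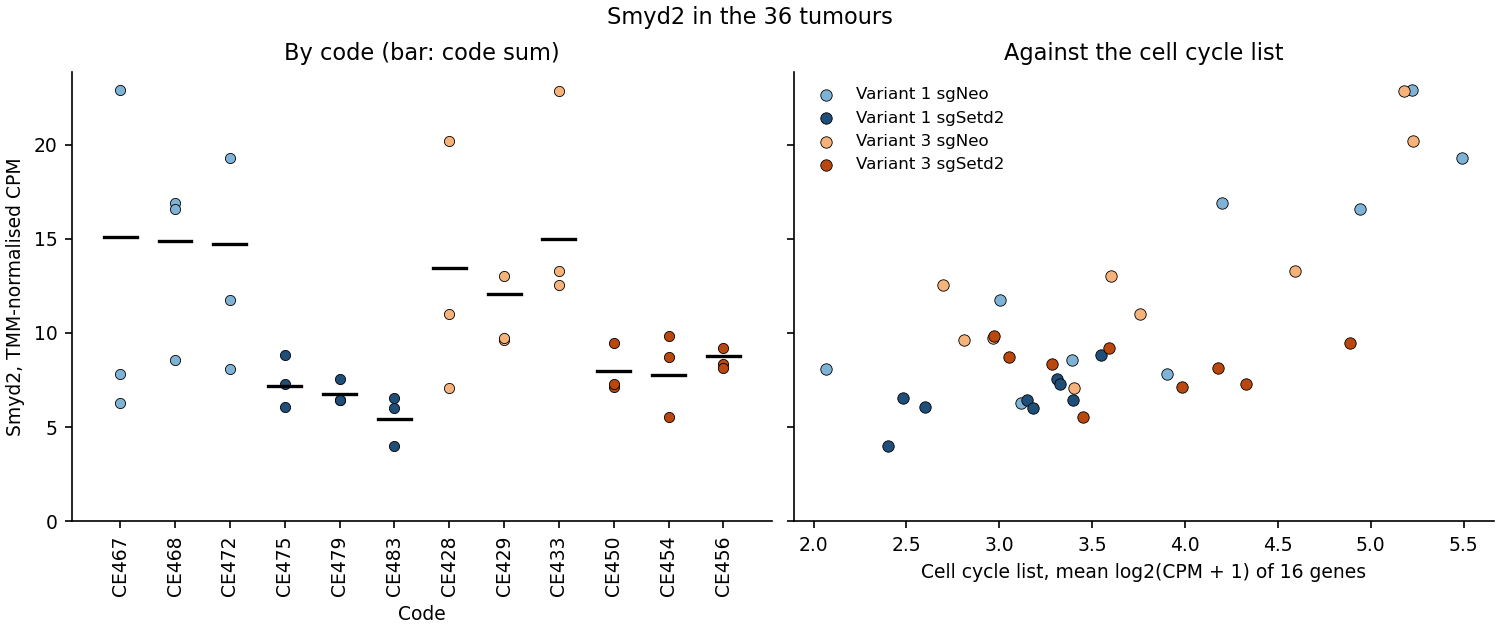
Smyd2 in TMM-normalised CPM (y axis, from 0) in 36 tumours, by code (left, with bars for code sums) and against the mean log2(CPM + 1) of 16 cell cycle genes (right), coloured by group. The sgSetd2 tumours reach at most 9.85 CPM, and the sgNeo tumours spread from 6.26 to 22.9 CPM, highest at high cell cycle levels.

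No other gene of the list passed in any comparison with edgeR on code sums. In V3 the next after Smyd2 were Psip1, a PWWP reader of methylated H3K36 also known as LEDGF, at 0.77 (SE 0.21, adjusted p = 0.105), and Mtf2, a Tudor reader of Polycomb complexes, at -0.56 (SE 0.18, adjusted p = 0.15). Psip1 stood at 45.9 ± 6.79 CPM in V3 sgNeo and 78.4 ± 11.3 CPM in V3 sgSetd2 codes (SD, n = 3), and its 9 sgSetd2 tumours all lay above the sgNeo median. In V1 it stood at 57.9 ± 10.5 and 51.2 ± 14.2 CPM, and the difference between variants was 0.95 (adjusted p = 0.684). Psip1 in V3 passed with DESeq2 (adjusted p = 0.0171), edgeR on the 36 tumours (0.011) and limma voom (0.0111). The difference between variants was next largest by p for Brd1 (0.89) and Msh6 (0.69), both not passing.

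Between variants in sgNeo the genes of the list with the smallest p were Kdm4d (4.15, adjusted p = 0.359), Msh6 (-0.69) and Kdm4b (-0.45), and in sgSetd2 Psip1 (0.62), Zmynd11 (-0.29) and Smyd2 (0.34). Kdm4d, a testis-enriched relative of Kdm4a and Kdm4c, rests on 12 counts summed over V1 sgNeo and 253 over V3 sgNeo tumours, and its highest tumour held 1.34 CPM. DESeq2 called it at an adjusted p of 0.04998, 1 gene of the list.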

How the data were processed

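RNA from EGFP-positive neoplastic cells of 36 tumours was made into libraries with a SMART-Seq mRNA kit, per the labels' protocols. The authors deposited raw read counts per gene, 1 column per tumour. STAR 2.5.3a, R 4.2 and DESeq2 1.38.3 are named in the submitters' processing notes; the counter, strand setting, build and annotation were not given in the sources used here, so overlapping and antisense genes are uncertain. Of 49585 gene IDs, 49326 matched GENCODE mouse release 21 (GRCm38) and 259 had no symbol; coordinates are from that annotation. No 2 libraries were identical.

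Counts were summed per code and fitted by the quasi-likelihood functions of edgeR 4.0.16 (R 4.3.3; low genes removed with filterByExpr, TMM scaling, robust glmQLFit), with Benjamini-Hochberg adjustment over all genes and a threshold of 0.05. SE is the absolute log2 fold change over the square root of F, and 95% intervals use the fit's degrees of freedom. Slopes on Setd2 used log2-CPM (prior count 2) with group, over codes, or code, over 36 tumours, as factor. The guide contrast in V1 and the slope over codes were also run on simulated counts, and the outcome is not given here. The slope over tumours was not run on simulated counts. Alternatives were other scalings and filters, DESeq2 1.42.0, edgeR on tumours, limma 3.58.1, a cell cycle covariate, only the groups compared, and leaving out each code or tumour; a covariate for sex, read from Ddx3y at over 50 CPM, was added after seeing the data. Among these, edgeR on tumours had no term for the code, and limma voom took the code as a random block. The labels give no batch or date.

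Enzymes, lists and rules were chosen with earlier results of these data known. Named were all 10 enzymes; of the pathway list the genes that passed in a contrast and otherwise the 3 with the smallest p; the 5 genes closest to Setd2 by rho; and Retnla, Steap4 and Ugt8a beside single tumours. Counting error alone is small at these depths (at least 217 counts per enzyme and tumour).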

Additional observations from a re-analysis of the deposited data

Results flagged for a closer look

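Of 48 sets of 9 tumours (12 genes in 4 groups), 3 held a tumour whose gap to the others was large for its group's range by Dixon's criterion at 95%; chance gives about 1 in 20. Nsd1 stood at 136.8 CPM in tumour 2 of CE472 (V1 sgNeo), where the next tumour held 80.3 CPM. Nsd3 stood at 84.7 CPM in tumour 3 of CE483 (V1 sgSetd2), where the next held 58.3 CPM. Ash1l stood at 148.0 CPM in tumour 9 of CE456 (V3 sgSetd2), where the next held 104.6 CPM.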

How the results depend on the processing

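Over 59 alternatives for a contrast (58 for the average and the interaction), no enzyme passed in V3, between variants or for the interaction, and none followed Setd2 over codes or within codes in 15 alternatives each. In V1, 1 enzyme (Setd2) passed with a mean of at least 5 CPM (-0.85), DESeq2 (-0.84), edgeR on 36 tumours (-0.81) and limma voom (-0.82), with adjusted p from 0.00554 to 0.0476, and with 1 code or tumour left out the count ran from 0 to 1 and the Setd2 value from -1.003 to -0.74. Averaged over variants, Setd2 passed in 23 of 58 alternatives: upper-quartile scaling (-0.55), no filter (-0.55), a mean of at least 5 CPM (-0.55), DESeq2 (-0.55), edgeR on 36 tumours (-0.54), limma voom (-0.55) and limma on mean log2-CPM (-0.56), with adjusted p from 0.00177 to 0.0477, and 16 that left out a code or tumour (-0.68 to -0.54). Over all fits with 1 code or tumour left out the value ran from -0.68 to -0.47. The count of enzymes there was 1 in each, and 2 with edgeR on 36 tumours (Setd2 and Nsd3), and it ran from 0 to 1 with 1 code or tumour left out. Setd2 kept its sign in every alternative of the 3 guide contrasts. Nsd1 in V3 reversed without CE429 (0.0857), its values with 1 code or tumour left out running from -0.50 to 0.0857.

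Of the pathway list, 0 genes passed in V1 with limma on mean log2-CPM or the cell cycle covariate, and from 0 to 1 with 1 code or tumour left out. In V3, 2 passed with DESeq2 (Smyd2 and Psip1), 3 with edgeR on 36 tumours (Smyd2, Psip1 and Hdgf), 2 with limma voom (Psip1 and Hdgf), and from 0 to 1 with 1 code or tumour left out. Averaged, 2 passed with a mean of at least 5 CPM (Smyd2 and Hdgf), 4 with DESeq2 (adding Mtf2 and Phf1), 3 with edgeR on 36 tumours (Smyd2, Hdgf and Glyr1), 3 with limma voom (Smyd2, Hdgf and Phf1), 0 with the cell cycle covariate, and from 1 to 2 with 1 code or tumour left out. Between variants in sgNeo 1 passed with DESeq2 (Kdm4d). The shares of all genes called by the other tools are not given here, so their counts stand without a background. Smyd2 kept its call in 53 of 59 alternatives in V1 and in 57 of 58 averaged. Except where fewer samples or genes entered a fit, the cause of these changes was not tested. No paired analysis was possible because the labels number no replicates across groups.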
